A study of Mus musculus with 6 samples.

Results

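The J segments of the T cell receptor alpha chain (TRAJ) were described along their locus in spleen T cells of 2 mice. Members were all J gene names beginning with TRAJ in alpha chain contigs of T cells, T cells being barcodes that the T cell receptor table calls cells and the same mouse's B cell receptor table does not. Contigs had to be high-confidence and carry at least 2 unique molecular identifiers (UMIs). The rule found 46 TRAJ names, 43 of them in at least 1 productive contig, of 60 listed in RefSeq. The 43 were part of 167 V and J gene names of both chains that productive T cell contigs carried.

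The WT group was 1 C57BL/6JRj mouse. The other group was 1 564Igi mouse, heterozygous for Ightm1(Igh564)Tik and Igktm1(Igk564)Tik on the B6.129S4(Cg) background, whose B cells can carry the knocked-in heavy and kappa chain of an autoreactive antibody. The knocked-in genes are antibody genes, and the labels name no change to a T cell receptor gene and no age. Erythroid cells were removed from both spleens by Ter-119 selection, and 5′ V(D)J libraries were made on the 10x platform, so the T cells were neither sorted nor enriched. No gene expression library was used here, and T cell identity rests on receptor calls alone.

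The alpha chain gene is made by joining 1 of many TRAV segments to 1 of many TRAJ segments, and joining can be repeated on the same chromosome. Each later join uses a V segment further out and a J segment further in, so that the first joins are known to use J segments near the V genes and later ones J segments near the constant gene. Both chromosomes can be joined in the same thymocyte, which is why a T cell can carry a second alpha chain. TRAJ numbers run down along the locus, with the highest number next to the V genes. Here numbers 41 to 61 are called V-proximal, 21 to 40 middle and 1 to 20 C-proximal, and the mean J number of a set of contigs measures its position.

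The TRAJ segments lie on chromosome 14 of GRCm38.p6, from 54155005 to 54218842, a stretch of 63.8 kb. Contigs of the WT T cell library summed to 86409 UMIs from 30190690 reads, and those of 564Igi to 114433 UMIs from 32922893 reads. They gave 3263 WT and 4573 564Igi T cells, of which 2346 and 3343 had a productive alpha chain. A further 345 WT and 373 564Igi barcodes were called in both tables of a mouse and were left out, and 29 barcodes were called T cells in both mice. The rule kept 3138 WT and 4589 564Igi alpha contigs, with a median of 4 UMIs per productive contig in each mouse. Productive contigs numbered 2690 and 3857. Invariant TRAV11 with TRAJ18 chains are described apart and are left out of every position value, which leaves 2659 WT and 3796 564Igi productive contigs. With 1 mouse per group, differences between the mice have no replicate check. Values in parentheses after a share or difference are 95% intervals (exact Clopper-Pearson for shares, Newcombe for differences), which reflect counting error alone.

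The ends of the J segments were read from the CDR3 nucleotides of the productive contigs. The end of a segment was taken as the run of bases, back from the CDR3's last base, at which at least 50% of its distinct CDR3s agreed. For TRAJ44, only its 32 distinct CDR3s of the longer range were used, so the first bases printed need not be the segment's own. Its short CDR3s are described below. The ends of 6 segments that the results turn on are shown 5′ to 3′, with the last codon of the CDR3 in capitals. The stop named for TRAJ27 refers to its nonproductive contigs with a CDR3 alone (7 of 8 in WT and 15 of 16 in 564Igi).
TRAJ31, the most used segment: aatagcaataacagaatcttcTTT
TRAJ2, the longest end: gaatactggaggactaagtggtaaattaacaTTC
TRAJ32, often nonproductive: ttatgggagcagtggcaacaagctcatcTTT
TRAJ27, often with a stop: taacaccaatacaggcaaattaaccTTT
TRAJ33, ending in tryptophan: ggatagcaactatcagttgatcTGG
TRAJ44, with CDR3s of 2 lengths: gggctggcagtggtggaaaactcactTTG
The last codon was TTT in 32 of the 43 segments and TTC in 7, both codons of the phenylalanine that usually closes the CDR3. TRAJ38 and TRAJ33 ended in TGG, the codon of tryptophan, and TRAJ7 and the long CDR3s of TRAJ44 in TTG, a leucine codon.

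Productive alpha chains of both mice used the whole locus, with a broad peak in its middle. The 5 most used segments of WT were TRAJ31, TRAJ22, TRAJ23, TRAJ30 and TRAJ26, and those of 564Igi were TRAJ31, TRAJ22, TRAJ23, TRAJ37 and TRAJ27. All of them are middle segments. TRAJ31 (54187895 to 54187951) was in 143 WT contigs, or 5.38% (4.55 to 6.30), and in 233 564Igi contigs, or 6.14% (5.40 to 6.95). TRAJ22 followed with 138 WT contigs (5.19%, 4.38 to 6.10) and 199 564Igi contigs (5.24%), and TRAJ23 with 134 (5.04%, 4.24 to 5.94) and 179 (4.72%). The intervals of these 3 segments overlapped one another in WT, so their order there is within counting error. TRAJ30 and TRAJ26 made up 4.06% and 4.02% of WT and 3.32% and 3.29% of 564Igi contigs. TRAJ37 and TRAJ27 made up 3.72% and 3.61% of WT and 4.43% and 3.95% of 564Igi contigs.

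**Figure D1:**
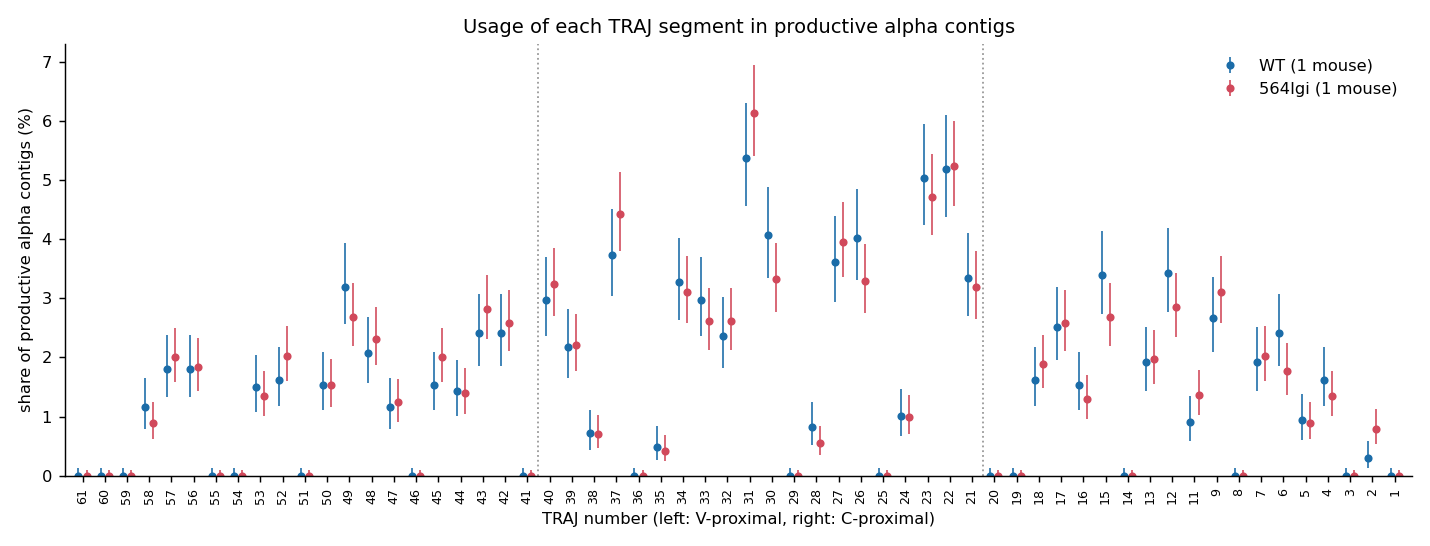
Share of productive alpha contigs with each TRAJ segment (vertical axis, percent) in the order of the locus (horizontal axis), for 1 WT and 1 564Igi mouse, with exact 95% intervals as bars and dotted lines between the V-proximal, middle and C-proximal segments. TRAJ31 was highest in both mice, at 5.38% and 6.14%, and 8 J segments and 9 pseudogenes were at 0 in both.

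At the other end of the range, TRAJ35, TRAJ2, TRAJ28, TRAJ38 and TRAJ5 were the least used of the 43 by the mean share of both mice. TRAJ35 had 13 WT and 16 564Igi contigs, or 0.489% and 0.421%. TRAJ2, the segment nearest the constant gene among those used, had 8 and 30, or 0.301% (0.130 to 0.592) and 0.790% (0.534 to 1.13). Low use was therefore found in the middle of the locus (TRAJ38, TRAJ35 and TRAJ28) as well as at its constant gene end. TRAJ28 had 22 and 21 contigs, TRAJ38 had 19 and 27, and TRAJ5 had 25 and 34. At the V end, TRAJ58, TRAJ57 and TRAJ56 had 1.17%, 1.81% and 1.81% of WT and 0.896%, 2.002% and 1.84% of 564Igi contigs. TRAJ4, the next used segment before TRAJ2, had 1.62% and 1.34%.

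The remaining listed TRAJ had no productive contig in either mouse, and a count of 0 allows each a share of up to 0.113% in WT and 0.0790% in 564Igi (3 counts of the total). All 9 segments that RefSeq lists as pseudogenes were among them, namely TRAJ61, TRAJ60, TRAJ55, TRAJ54, TRAJ51, TRAJ36, TRAJ14, TRAJ8 and TRAJ1. A further 8 are listed as J segments without that remark: TRAJ59, TRAJ46, TRAJ41, TRAJ29, TRAJ25, TRAJ20, TRAJ19 and TRAJ3. Whether the reference used for naming held all of these was not tested. TRAJ25 was named in 1 nonproductive contig in each mouse, so it had been joined there, and TRAJ41 and TRAJ3 each in 1 564Igi contig without a V gene.

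Usage was alike in the mice. Over the 43 segments, the shares in the mice had a Pearson r of 0.956 and a Spearman rho of 0.961, as a description across segments of 2 libraries. The median difference between the mice was 0.269 percentage points and the largest 0.760. A segment was called between the mice where it had at least 20 contigs in either and its exact intervals did not overlap. None of 42 TRAJ that could be called was higher or lower in 564Igi. By the same rule over 139 V and J genes of both chains, 0.719% were called higher and 0% lower in 564Igi, so that the count for TRAJ was near this background. The mean J number was 29.57 (SD 14.2, n = 2659 contigs) in WT and 29.92 (SD 14.2, n = 3796) in 564Igi. V-proximal segments were in 629 WT contigs (23.7%, 22.05 to 25.3) and 937 564Igi contigs (24.7%, 23.3 to 26.1), a difference of 1.03 points (-1.12 to 3.16). C-proximal segments were in 669 (25.2%, 23.5 to 26.85) and 933 (24.6%, 23.2 to 26.0), a difference of -0.581 points (-2.76 to 1.58). Both intervals include 0.

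Position and depth moved together. Contigs with V-proximal segments had fewer UMIs, with means of 4.51 in WT and 4.46 in 564Igi, against 5.46 and 5.15 for middle and 5.32 and 5.49 for C-proximal segments. Across the 43 segments, J number and mean UMIs per contig had a Spearman rho of -0.448 in WT and -0.703 in 564Igi. Among contigs with exactly 2 UMIs, 28.9% (25.0 to 33.0) of WT and 31.8% (28.4 to 35.35) of 564Igi contigs were V-proximal. Among contigs with 5 or more UMIs, the shares were 19.8% (17.6 to 22.2) and 20.3% (18.4 to 22.2), and the intervals of the 2 depths did not overlap in either mouse. Position values therefore depend on the UMI minimum, and the mean J number with a minimum of 5 was 28.4 in WT and 28.5 in 564Igi. Whether cells with V-proximal joins hold fewer alpha transcripts or yield fewer reads was not tested.

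The V gene joined to a J segment followed the order of the locus closely. RefSeq lists 130 TRAV genes between 52427967 and 53977678 of chromosome 14, and they were ranked along it, with the highest rank nearest the J segments. The 43 genes with ranks of 88 and above, from TRAV7-4 on, were in 76.95% (73.45 to 80.2) of WT contigs with a V-proximal J, in 48.7% (46.03 to 51.4) with a middle J and in 23.6% (20.45 to 27.02) with a C-proximal J. The shares in 564Igi were 76.6% (73.8 to 79.3), 47.3% (45.05 to 49.6) and 23.2% (20.5 to 26.0). No interval of one J group overlapped that of another within a mouse. The fall from V-proximal to C-proximal J was 53.3 points (48.45 to 57.9) in WT and 53.5 points (49.5 to 57.3) in 564Igi.

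Segment by segment, the mean TRAV rank fell with J number, though unevenly among C-proximal segments. The mean TRAV rank of contigs with TRAJ58 was 106 in both mice, and with TRAJ4 it was 44.2 in WT and 52.2 in 564Igi. TRAJ31, in the middle, had 73.6 and 69.8. TRAJ18 had 56.3 and 59.9, and TRAJ2, the last used segment, had 56.9 (8 contigs) and 55.3 (30 contigs). Over the 43 segments, J number and mean TRAV rank had a Pearson r of 0.9502 in WT and 0.959 in 564Igi. Over single contigs the relation was looser, with a rho of 0.439 (n = 2659) and 0.442 (n = 3796), and V ranks within a J group had SDs of 31.45 to 35.12. Nonproductive joins had rhos of 0.410 (n = 380) and 0.365 (n = 641).

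**Figure D2:**
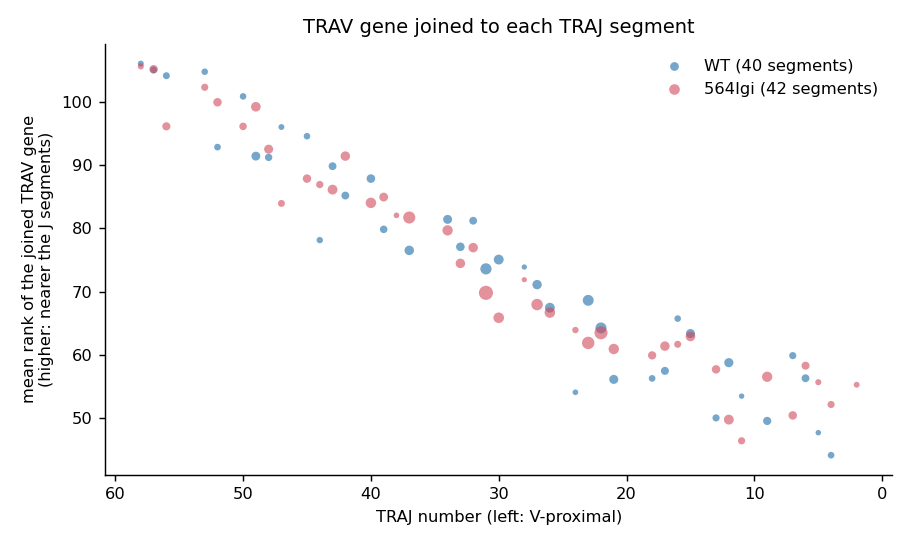
Mean rank of the TRAV gene (vertical axis, higher is nearer the J segments) in productive contigs of each TRAJ (horizontal axis, TRAJ number), for segments with at least 20 contigs; the area of a point grows with its number of contigs. From TRAJ58 to TRAJ4 the mean rank falls from 106 to 44.2 in WT and from 106 to 52.2 in 564Igi. TRAJ2, with enough contigs in 564Igi alone, is at 55.3.

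Seen from the V side, the genes nearest the J segments joined mostly V-proximal J. TRAV21-DV12, the last TRAV gene before the J segments that was used, had a mean J number of 49.7 (n = 33) in WT and 50.1 (n = 51) in 564Igi. TRAV19, its neighbour, had 48.3 (n = 30) and 50.4 (n = 37). Far from the J segments the trend levelled off. A large part of the TRAV locus exists in copies, which carry a D or an N in their names, and nearly identical copies cannot always be told apart by contig. D-named genes had mean J numbers of 23.2 (SD 13.0, n = 776) in WT and 23.9 (SD 13.0, n = 1171) in 564Igi, and N-named genes 24.1 (n = 348) and 23.7 (n = 464). The 7 unlettered genes at the far end, such as TRAV1 and TRAV2, had 23.9 (SD 10.3, n = 100) and 24.9 (SD 10.5, n = 124), and the unlettered genes on the J side 34.75 (n = 1435) and 35.1 (n = 2037). By mean J number alone, the far-end genes thus joined about as far in as the copies did. C-proximal segments made up 27% (18.6 to 36.8) of their joins in WT and 29.0% (21.2 to 37.9) in 564Igi. The shares were 42.1% (38.6 to 45.7) and 38.3% (35.5 to 41.1) for D-named genes, with intervals apart from the far-end ones in WT alone. For N-named genes they were 35.9% (30.9 to 41.2) and 38.1% (33.7 to 42.7). Joins of the far-end genes were more often than those of D-named genes in the middle of the J locus, with 66% of WT joins (55.85 to 75.2) and 65.3% of 564Igi joins (56.25 to 73.6). D-named genes had 47.4% (43.9 to 51) and 50.04% (47.1 to 52.95), and the intervals did not overlap in either mouse. Those of N-named genes did, with 52.6% (47.2 to 57.9) and 51.7% (47.1 to 56.4). The mean J numbers of the 67 TRAV genes with at least 10 contigs in each mouse had a Pearson r of 0.928 between the mice.

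The alpha contigs of a cell lay close to each other on the J locus. In 572 WT and 854 564Igi cells with exactly 2 joined alpha contigs, productive or not, the J numbers had a Spearman rho of 0.704 and 0.638. Their mean distance was 8.08 and 8.83 J numbers, against 15.5 and 15.97 between contigs of different cells. This is a description over cells of 1 library each, with no test.

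Where both contigs were productive, 41.5% of 318 WT and 41.1% of 440 564Igi cells had J numbers within 5 of each other, against 20.8% and 20.3% between different cells. J numbers more than 20 apart were found in 3.14% of these cells in WT and 10.7% in 564Igi, against 32.0% and 33.3% between different cells. Of 127 V-proximal contigs in these WT cells, 88 had a V-proximal partner and 2 a C-proximal one. In 564Igi, 138 of 215 had a V-proximal and 11 a C-proximal partner. Pairs of a productive and a nonproductive contig were as close, with rhos of 0.633 in WT (n = 252) and 0.689 in 564Igi (n = 410) and mean distances of 8.26 and 8.16. Without pairs that shared a TRAJ, the rhos over all cells with 2 joined contigs were 0.684 (n = 542) and 0.612 (n = 806). The V genes of the 2 contigs were less alike than their J segments, with rhos of V rank of 0.169 and 0.198 over all cells with 2 joined contigs.

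For pairs of productive contigs, the pattern differed by the number of beta chains in 564Igi. Most T cells have a single productive beta chain, and a barcode with more can be a droplet that held more than 1 T cell. Among cells with 2 productive alpha contigs and 1 productive beta chain, the rho was 0.754 in WT (n = 278) and 0.698 in 564Igi (n = 350). Among those with 2 or more productive beta chains it was 0.624 in WT (n = 25) and -0.0119 in 564Igi (n = 61). In these 61 cells the mean distance of 16.2 was near the 17.0 between different cells, and 29.5% of the pairs were more than 20 apart, against 35.2%. The 25 WT cells had a mean distance of 9.72, against 16.6. Pairs of a productive and a nonproductive contig in 564Igi cells with 2 or more beta chains stayed close, with a rho of 0.608 (n = 28) and a mean distance of 8.64. No doublet caller was run, the part of doublets in the difference was not tested, and with 1 mouse per group the difference between the mice has no replicate check.

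**Figure D3:**
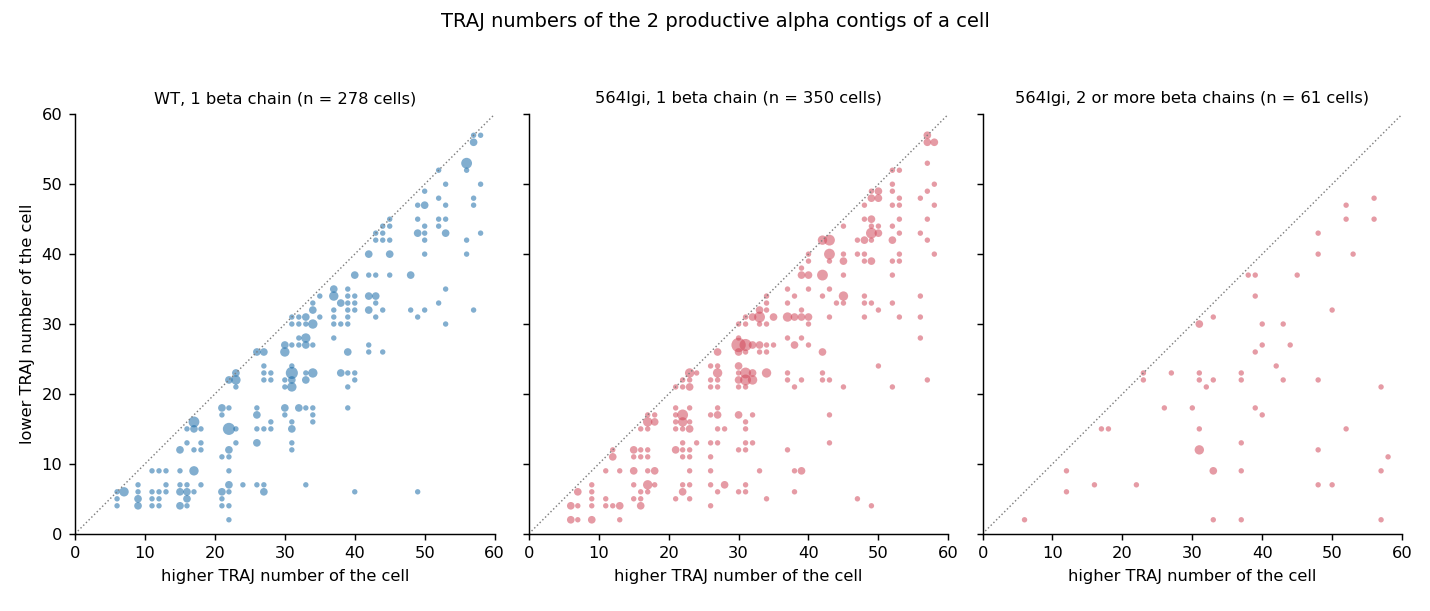
TRAJ numbers of the 2 productive alpha contigs of a cell, the higher on the horizontal and the lower on the vertical axis, for WT and 564Igi cells with 1 productive beta chain and for 564Igi cells with 2 or more; point area grows with the number of cells, and the dotted line marks equal numbers. Points crowd along the line in the first 2 panels (rho 0.754 and 0.698) and spread over the triangle in the last (rho -0.0119).

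Cells with 2 productive alpha chains (dual-alpha) were compared with cells with 1 (single-alpha). There were 2012 single-alpha and 324 dual-alpha cells in WT, and 2855 and 464 in 564Igi. A further 10 and 24 cells had 3 or more productive alpha contigs and are in neither group. The mean J number of dual-alpha contigs was 27.85 (n = 647) in WT, against 30.10 (n = 1982) for single-alpha contigs. In 564Igi it was 29.37 (n = 923), against 30.16 (n = 2799). C-proximal segments made up 30.45% (26.9 to 34.15) of dual-alpha and 23.6% (21.7 to 25.5) of single-alpha contigs in WT, a difference of 6.89 points (2.865 to 11.03). The difference in 564Igi was 2.28 points (-0.966 to 5.64), with an interval that includes 0. These intervals count the 2 contigs of a cell as independent, although their J numbers correlate, so they are too narrow. With only the contig with more UMIs of each dual-alpha cell, C-proximal segments made up 32.5% (27.4 to 37.9) in WT and 25.9% (22.0 to 30.2) in 564Igi. Single-alpha contigs had 23.6% (21.7 to 25.5) and 23.9% (22.4 to 25.6), and the intervals overlapped in 564Igi alone. With only the contig with fewer UMIs, the shares were 28.2% (23.3 to 33.4) and 26.8% (22.8 to 31.1). Those intervals overlapped the single-alpha ones in both mice. Depth differed too, with mean UMIs in WT of 6.81 for the contig with more, 3.98 for the other and 5.14 for single-alpha contigs.

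In cells with exactly 1 productive beta chain, the differences were 6.49 points (2.21 to 10.9) in WT and 2.52 points (-1.11 to 6.30) in 564Igi. The shift in WT depended on the UMI minimum. With a minimum of 5 UMIs per contig, the dual-alpha minus single-alpha difference in mean J number was 0.35 in WT and -2.56 in 564Igi. In dual-alpha cells the contig with fewer UMIs was under 5 UMIs in 70.0% of WT and 73.4% of 564Igi cells, and the contig with more UMIs in 32.5% and 27.02%, so that most of these cells do not keep both chains at this minimum. No single TRAJ of the 40 that could be called was higher or lower in dual-alpha cells of both mice. The background over 92 TRAV and TRAJ names was 0% higher and 0% lower.

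Joins that encode no receptor are not selected for one. Their J numbers correlate with that of a productive contig in the same cell (rho 0.633 in WT and 0.689 in 564Igi). They are therefore not independent of selected chains. With this limit, the positions of nonproductive joins were set beside those of productive joins. Here the term covers contigs flagged as not productive, which have a CDR3 in the table (61 in WT and 115 in 564Igi), and contigs with V and J genes but no CDR3, whose productive flag is None (319 and 526). Of those without a CDR3, 309 and 491 were flagged full-length, and whether they encode a receptor was not tested. Together the 2 kinds made up 12.5% of joined WT and 14.25% of joined 564Igi contigs. Their mean J number was 29.28 (n = 380) in WT, against 29.57 in productive contigs, and 28.96 (n = 641) in 564Igi, against 29.92. V-proximal segments made up 21.3% (17.3 to 25.8) and 21.4% (18.3 to 24.8) of them, which is -2.34 points (-6.68 to 2.41) and -3.31 points (-6.73 to 0.334) from the productive share. Both differences have intervals that include 0. Depth was not matched, as nonproductive contigs had a median of 3 UMIs in WT and 2 in 564Igi, against 4 for productive ones. Of productive contigs with exactly 2 UMIs, 28.9% (25.0 to 33.0) and 31.8% (28.4 to 35.35) were V-proximal. Whether the kinds differ in position at like depth was not tested. By kind, the mean J numbers of nonproductive contigs were 28.61 in WT and 30.12 in 564Igi with a CDR3, and 29.41 and 28.71 without one. Middle segments were more frequent in 564Igi contigs with a CDR3 than in productive ones, by 10.1 points (0.458 to 19.2), whereas in WT this difference was 1.27 points (-12.1 to 14.4). In windows of 10 numbers, nonproductive contigs of WT were more frequent at 31 to 40, with 31.3% (26.7 to 36.2) against 24.1% (22.5 to 25.7), and those of 564Igi had 27.8% (24.3 to 31.4) against 25.5% (24.1 to 26.9).

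**Figure D4:**
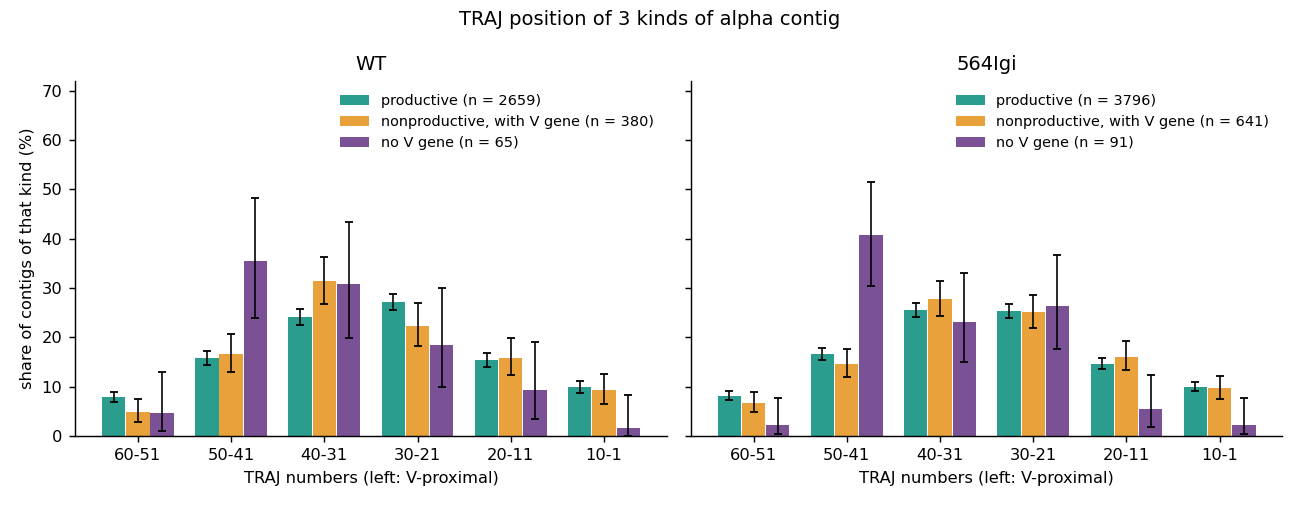
Share of contigs (vertical axis, percent) in windows of 10 TRAJ numbers (horizontal axis, V-proximal on the left) among productive contigs, nonproductive contigs with a V gene and contigs without a V gene, for WT and 564Igi, with exact 95% intervals as bars. Nonproductive contigs were higher than productive ones at 31 to 40 in WT (31.3% against 24.1%), with overlapping intervals in the other windows, and contigs without a V gene peak at numbers 41 to 50, with 35.4% in WT and 40.7% in 564Igi.

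A few single segments were called between nonproductive and productive contigs, at a rate near the background given below. TRAJ32, whose end is shown above, had 26 WT and 47 564Igi contigs without a CDR3, or 8.15% and 8.94% of them, against 2.37% and 2.61% of productive contigs. These contigs used 18 and 33 V genes, so they were not copies of 1 join. TRAJ33, the segment used by mucosal-associated invariant T (MAIT) cells, went the other way, with 1 contig in each mouse, or 0.313% and 0.190%, against 2.97% and 2.61%. Both segments were called in the same direction in both mice. Among nonproductive contigs with a CDR3 they did not follow this order, with TRAJ32 in 0 WT and 2 564Igi contigs and TRAJ33 in 3 and 11. Of all TRAV and TRAJ names, these 2 included, 2.11% were called higher and 1.05% lower in contigs without a CDR3. The 2 of 40 TRAJ are of the same order. The cause of either difference was not tested.

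Among nonproductive contigs with a CDR3, TRAJ27 was the 1 TRAJ of 41 that was called. It made up 8 of 61 WT and 16 of 115 564Igi contigs, or 13.1% and 13.9%, against 3.61% and 3.95% of productive contigs. The background, TRAJ27 included, was 2.13% called higher and 0% lower. A stop codon stood in the CDR3 of 7 of the 8 and 15 of the 16, against 29 of 61 and 58 of 115 over all segments. Stops were also frequent with TRAJ17 (5 of 5 and 9 of 10) and TRAJ37 (4 of 4 and 3 of 4), which were not called. In 7 WT and 13 564Igi contigs the CDR3 ended 1 base beyond the usual end, and the stop was TAA, 9 bases from that end. The shared end of these 20 contigs, with the stop in capitals, shows that the segment's own bases hold the stop in this reading frame.
TRAJ27 read in the other frame: taacaccaatacaggcaaatTAAcctttg
None of the productive TRAJ27 contigs ended 1 base beyond. A join that keeps this stop cannot encode a receptor chain, so this count is no separate evidence.

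Contigs with a TRAJ and no V gene were short and held mainly a few segments. There were 65 in WT and 91 in 564Igi, with median lengths of 320 and 318 bases, against 575 and 573 for productive contigs. V-proximal segments were in 26 of the 65 (28.04 to 52.9%) and 39 of the 91 (32.5 to 53.7%), which is 16.3 points (4.27 to 29.35) and 18.2 points (7.75 to 29.1) above the productive share. This excess rested on TRAJ49, with 16 contigs in WT and 22 in 564Igi. Without TRAJ49 in either kind, 10 of 49 and 17 of 69 were V-proximal, and the difference was -0.73 points (-11.02 to 13.3) in WT and 2.03 points (-7.65 to 14.0) in 564Igi. TRAJ49, TRAJ37 and TRAJ27, named here after their values were seen, made up 37 of the 65 and 44 of the 91, against 10.5% and 11.1% of productive contigs. A productive alpha contig was present in the cells of 39 of the 65 and 57 of the 91. What lies upstream of the J segment in these contigs was not tested.

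CDR3 length varied by segment more than by position. The mean was 13.68 amino acids (SD 1.98, n = 629) for V-proximal, 13.39 (SD 1.39, n = 1361) for middle and 13.57 (SD 1.36, n = 669) for C-proximal segments in WT. In 564Igi the means were 13.59 (SD 2.06, n = 937), 13.41 (SD 1.36, n = 1926) and 13.58 (SD 1.41, n = 933). The V-proximal minus C-proximal difference was thus 0.12 amino acids in WT and 0.016 in 564Igi, and it depended on the grouping. Between the outer of 4 groups of numbers it was 0.70 and 0.72. Segments with at least 20 contigs in each mouse were ranked by the mean of both mice. The longest CDR3s among them were those of TRAJ28 (15 and 15.7), TRAJ53 (15.35 and 14.8) and TRAJ32 (14.97 and 14.8). The shortest were those of TRAJ44 (9.66 and 8.36), TRAJ31 (12.4 and 12.3) and TRAJ33 (12.5 in both). TRAJ2, below this limit with 8 WT contigs, had 15.9 and 15.2.

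Differences in length followed how many bases of the J end a CDR3 kept. The mean number of kept bases ran from 22.0 (TRAJ31) to 32.4 (TRAJ2) in WT and from 21.8 (TRAJ31) to 31.4 (TRAJ2) in 564Igi, which the printed ends of these segments show. Over 42 segments without TRAJ44, kept bases and mean CDR3 length had a rho of 0.897 in WT and 0.938 in 564Igi. The rest of the CDR3, from the V gene and added bases, had rhos of 0.194 and 0.143 with length and means between 13.1 and 18.04 bases in WT and 13.5 and 16.85 in 564Igi. The kept bases are part of the CDR3, so the first relation is a description of where length comes from and not an independent measure.

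TRAJ44 had CDR3s of 2 separate length ranges. Of its productive contigs, 21 of 38 in WT and 38 of 53 in 564Igi had a CDR3 under 10 amino acids, that is 55.3% (38.3 to 71.4) and 71.7% (57.65 to 83.2). All other segments together had 5 such contigs of 2621 and 19 of 3743. The short TRAJ44 CDR3s were 4 to 7 amino acids in WT and 4 to 9 in 564Igi, the long ones 12 to 16 and 12 to 15, with none between. Of the short ones, 20 of 21 and 37 of 38 ended in ACT, whereas all 17 and all 15 long ones ended in TTG. The 2 examples are the one found in 2 cells and the longest, with ACT in capitals.
TRAJ44 short CDR3, 2 cells of 564Igi: tgtgctttgcgtcatACT
TRAJ44 short CDR3, 1 cell of 564Igi: tgtgcagcaagctgggcttacgttACT
The last bases of ACT are also in the long end printed above, where 24 bases follow them, TTG included. No long TRAJ44 CDR3 had the whole ACT before those bases. The bases beyond the CDR3 of the short contigs were not analysed here, so whether they continue like the long ones was not tested. Without TRAJ44, V-proximal segments had the longest mean CDR3 of the 3 groups, 13.94 in WT and 13.91 in 564Igi. TRAJ5 also had 2 short CDR3s in each mouse, all ending in ACA, with 22 bases of its usual end beyond that point. That number is not a multiple of 3, whereas the 24 bases of TRAJ44 are.

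**Figure D5:**
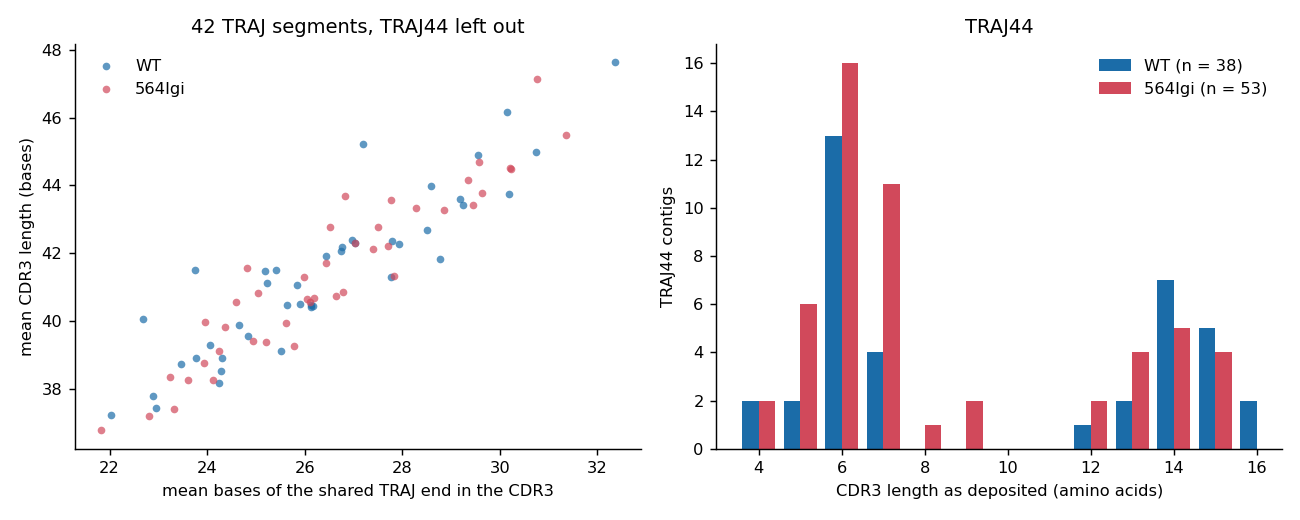
Left, mean CDR3 length in bases (vertical axis) against the mean number of bases of the shared J end kept in the CDR3 (horizontal axis) for 42 TRAJ segments in WT and 564Igi. Right, number of productive TRAJ44 contigs (vertical axis) by deposited CDR3 length in amino acids (horizontal axis), with 1 group at 4 to 9 and another at 12 to 16.

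TRAJ18 joined to TRAV11 forms the invariant alpha chain of natural killer T (NKT) cells, which recognise lipids bound to CD1d. It was the productive alpha chain of 31 of 2346 WT cells, or 1.32% (0.8995 to 1.87), and of 61 of 3343 564Igi cells, or 1.82% (1.40 to 2.34). The intervals overlap. All of these chains had TRAV11, none TRAV11D, and a CDR3 of 45 bases. WT had 6 nucleotide sequences and 564Igi 5. The 4 commonest are shown with base 12 in capitals, counted from 1 at the first base of the CDR3, which is the last base of codon 4.
WT 9 cells, 564Igi 28 cells: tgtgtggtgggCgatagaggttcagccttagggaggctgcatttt
WT 8 cells, 564Igi 15 cells: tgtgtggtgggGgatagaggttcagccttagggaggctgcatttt
WT 8 cells, 564Igi 8 cells: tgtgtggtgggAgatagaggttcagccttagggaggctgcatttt
WT 4 cells, 564Igi 9 cells: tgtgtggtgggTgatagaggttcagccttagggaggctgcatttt
The last 3 differ from the first by C12G, C12A and C12T, so each of the 4 bases was found there, and a glycine codon results in each case. The remaining 2 sequences had G11T (1 cell in each mouse) and G11C (1 WT cell), which change that codon.

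Other chains with TRAJ18 used many V genes. There were 43 in WT with 30 V genes and 43 CDR3 sequences, and 72 in 564Igi with 43 V genes and 67 CDR3 sequences. Without the invariant chains TRAJ18 made up 1.62% (1.17 to 2.17) and 1.90% (1.49 to 2.38) of productive contigs, and with them 2.75% and 3.45%. The J numbers of the other joined alpha contigs of cells with the invariant chain had a mean of 20.5 (SD 10.0, n = 8) in WT and 24.3 (SD 5.68, n = 13) in 564Igi. None of these contigs was V-proximal, and the range was 4 to 34 and 13 to 32. In cells with other TRAJ18 chains, 1 of 19 and 1 of 27 such contigs was V-proximal, with means of 24.8 and 20.6. The invariant chain of MAIT cells, TRAV1 with TRAJ33, was found in 0 WT cells (3 counts of the total allow up to 0.128%) and in 2 564Igi cells with different CDR3s, or 0.0598% (0.00725 to 0.216). Most TRAJ33 chains, 79 in WT and 99 in 564Igi, thus belonged to other V genes.

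Few whole chains other than the invariant TRAV11 with TRAJ18 ones were shared by the mice. With those left out, 51 distinct combinations of V gene, J gene and CDR3 nucleotides occurred in both mice. That is 1.956% of 2608 in WT and 1.37% of 3724 in 564Igi. By position, 10 were V-proximal, 33 middle and 8 C-proximal. Their mean CDR3 was 13.1 amino acids, against 13.5 over all WT chains. All 5 invariant sequences of 564Igi, not among the 51, also occurred in WT.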

How the data were processed

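T cell receptor contig tables from the spleen of 1 WT and 1 564Igi mouse were analysed, with the B cell tables used only to leave out barcodes called in both. The deposited tables give, for every contig, raw counts of reads and UMIs (per the file headers), its length in bases, gene names, CDR3 and flags for cell, confidence and productivity. Cell Ranger 3.0.2 and mm10 are named in the submitters' processing notes, without the step. Not given in the sources used here is how flags and CDR3s were set. Coordinates and names come from a RefSeq table of GRCm38.p6, which matched all TRAJ and TRAV names kept.

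Productive contigs of the same CDR3 in a cell were counted once. Shares carry exact 95% intervals. With 1 mouse per group no p-value was computed. Segments named were the 5 most and 5 least used, all unused ones, the 3 highest and lowest numbers, those called, TRAJ18, TRAJ33 and the 3 longest and shortest by CDR3 among those with at least 20 contigs in each mouse. A segment was called between kinds of contig where intervals did not overlap in both mice in the same direction. Members and lists were chosen with earlier results of these data known. Calls between the mice, intervals and pair correlations were tested on simulated data. For calls, segments were raised 3-fold. Smaller shifts, and calls required in both mice, were not simulated. Alternatives changed the UMI minimum to 1 or 5, the flags, the barcodes, chains and cells kept, and the grouping of numbers. The tools were SciPy 1.17.1, NumPy 2.4.6, pandas 2.3.3 and matplotlib 3.10.9 under Python 3.11.15.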

Additional observations from a re-analysis of the deposited data

Results flagged for a closer look

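Contigs outside the rule also carried TRAJ names. In T cells, 301 WT and 361 564Igi contigs were listed with a mixed chain and a TRAJ. TRAJ50, singled out after its values were seen like the segments below, was in 261 and 313 of them, or 86.7% in both mice, and 274 and 323 had a beta chain constant gene. No V gene was named in 270 and 320. TRAJ50 made up 1.54% and 1.53% of productive alpha contigs.

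The B cell tables, where alpha contigs are not the target, held 61 WT and 126 564Igi TRAJ-bearing alpha contigs. None had a V gene, a constant gene or a productive flag. TRAJ17 was in 38 and 81, and TRAJ9 in 11 and 39.

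Barcodes not called T cells held 20 WT and 27 564Igi productive alpha contigs, of which 3 in each mouse were in barcodes called B cells.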

How the results depend on the processing

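Of 209 values under alternatives for 25 results, 185 stayed within the 95% interval of the reported value (for a count, within 1.5 times), 22 left it and 2 changed the sign of a value whose interval excluded 0. In all, 8 changed sign, among them nonproductive minus productive mean J number in 564Igi (0.20 with a CDR3, -0.95 with contigs without one added, -1.21 with those alone). A minimum of 5 UMIs accounts for most. It gave mean J numbers of 28.4 in WT and 28.5 in 564Igi, a dual minus single-alpha difference of 0.35 in WT, where it changed sign, and of -2.56 in 564Igi, and a rho between the alpha contigs of a cell of 0.642 and 0.486. It gave rhos of V and J position of 0.374 and 0.393, mean CDR3 lengths of 13.46 for V-proximal and 13.46 for C-proximal segments in WT and 13.29 for middle segments in 564Igi, and TRAV11 with TRAJ18 in 1.10% of 564Igi cells. The rho between the alpha contigs of a cell in 564Igi was 0.695 with exactly 1 beta chain, and with 2 or more, a setting chosen after seeing the data, 0.606 in WT and 0.170 in 564Igi. The V-proximal excess of contigs without a V gene, 16.3 and 18.2 points, was -0.73 and 2.03 without TRAJ49, chosen after seeing the data, and 0.18 in WT with a minimum of 5 UMIs, where 5 contigs remain. Counting distinct chains once put TRAV11 with TRAJ18 at 0.230% and 0.134% of chains, since few sequences occur. V-proximal minus C-proximal mean CDR3 length, 0.12 amino acids in WT and 0.016 in 564Igi as reported, was 0.70 and 0.72 with 4 groups of numbers, and 0.37 and 0.33 without TRAJ44, also chosen after seeing the data. Apart from fewer contigs and sequences, the causes were not tested. No TRAJ was called between the mice under any alternative. Keeping the contig with most UMIs leaves no dual-alpha cells, so it gives no value there. No paired analysis was possible because each group is 1 mouse. Small sets (the 61 WT nonproductive contigs with a CDR3, the 25 WT cells with 2 or more beta chains) limit precision.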
